A study of Mus musculus with 4 samples.

Results

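The cells described here are the barcodes of a mouse brain single-cell experiment that carried at least 3 UMIs (unique molecular identifiers, each standing for a captured transcript) of Hmga2. They were selected on that 1 measured value among barcodes with 500 UMIs or more, 200 detected genes or more and no more than 20% of UMIs from mitochondrial genes. Of 44503 kept barcodes in 4 libraries, 512 met the rule, and they are called Hmga2 cells below. Of these, 2 were among the 10809 kept barcodes of the old tumour library and 510 among the 11575 of the young tumour library, whereas the old sham library held 0 of 10418 and the young sham library 0 of 11701.

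The study injected C57BL/6 mice intracranially and, 2 weeks later, dissociated the hemisphere that had not been injected with an enzymatic adult brain kit for 10x Genomics 3′ v3 sequencing. The old tumour group was 93 weeks old and the young tumour group 8 weeks old, and both received 1000 CT2A-GFP-luc cells, a mouse glioblastoma (GBM) line that carries a fluorescent protein and luciferase. The old sham group, 93 weeks old, and the young sham group, 8 weeks old, received PBS. There was 1 library per group, and the number of mice behind each library is not given in the sources used here, so that age, treatment and library cannot be told apart and no test between groups was made. All intervals below are at the 95% level and cover counting error only.

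HMGA2 is a small chromatin protein that binds AT-rich DNA through its AT-hooks and bends it. It is abundant in the embryo and nearly silent in most adult tissues, where the let-7 microRNAs repress its transcript through sites in the 3′ UTR, and it is expressed again in many tumours, glioblastoma among them. CT2A is a glioma line of C57BL/6 origin that is widely used because it grows in mice with an intact immune system. The reporter genes of the line (GFP and luciferase) were not analysed here, so no value below shows directly which cells descend from the injected line.

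Hmga2 (ENSMUSG00000056758) lies on chromosome 10 of GRCm38, at positions 120361275 to 120476469 of the minus strand. Its transcript Hmga2-201 in GENCODE vM21 has 5 exons and 3710 bases, of which 324 code for protein and 2977 form the 3′ UTR. The let-7 sites are shown because they are the best known control of the gene that defines these cells. The let-7 seed (bases 2 to 8 of the microRNA, in capitals) is shared by 11 mature mouse microRNAs in RefSeq (GRCm38.p6), of which 3 that differ outside the seed are printed. The capitals in the sites mark CTACCTC, the complement of the seed.
mmu-let-7a-5p: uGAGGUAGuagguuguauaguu
mmu-let-7g-5p: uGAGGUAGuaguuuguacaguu
mmu-miR-98-5p: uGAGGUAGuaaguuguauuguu
Hmga2 site 1: gacattcaatttCTACCTCagcat
Hmga2 site 2: cactcctcaataCTACCTCtgaat
Hmga2 site 3: atttgcaaggaaCTACCTCcacac
Hmga2 site 4: caaaacacactaCTACCTCttaag
The sites run from position 21 to position 2554 of the UTR, at chr10:120364220-120364243, chr10:120362983-120363006, chr10:120362545-120362568 and chr10:120361687-120361710 on the minus strand. These are sequence matches. Mature microRNAs are not captured by this assay, and whether let-7 acted on Hmga2 in these cells was not tested.

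The young tumour library held 4.41% Hmga2 cells (exact Clopper-Pearson interval 4.04 to 4.80%) and the old tumour library 0.0185% (0.00224 to 0.0668%). With a count of 0, the exact interval reached 0.0354% in the old sham library and 0.0315% in the young sham library. The share that 3 cells would make, which is not an interval, was 0.0288% in the old sham library and 0.0256% in the young sham library. Hmga2 UMIs outside the Hmga2 cells were few in every library. As CPM, a gene's UMIs divided by all UMIs of the group on the usual scale, they came to 0.226 over the other kept barcodes of the old tumour library, 2.44 in the young tumour library, 0.385 in the old sham library and 0.551 in the young sham library. In the young tumour library the 510 cells held 13656 Hmga2 UMIs, or 99.0% of those in kept barcodes, against 144 in the other 11065 barcodes. The cells also held 21.3% of all UMIs of that library.

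**Figure D1:**
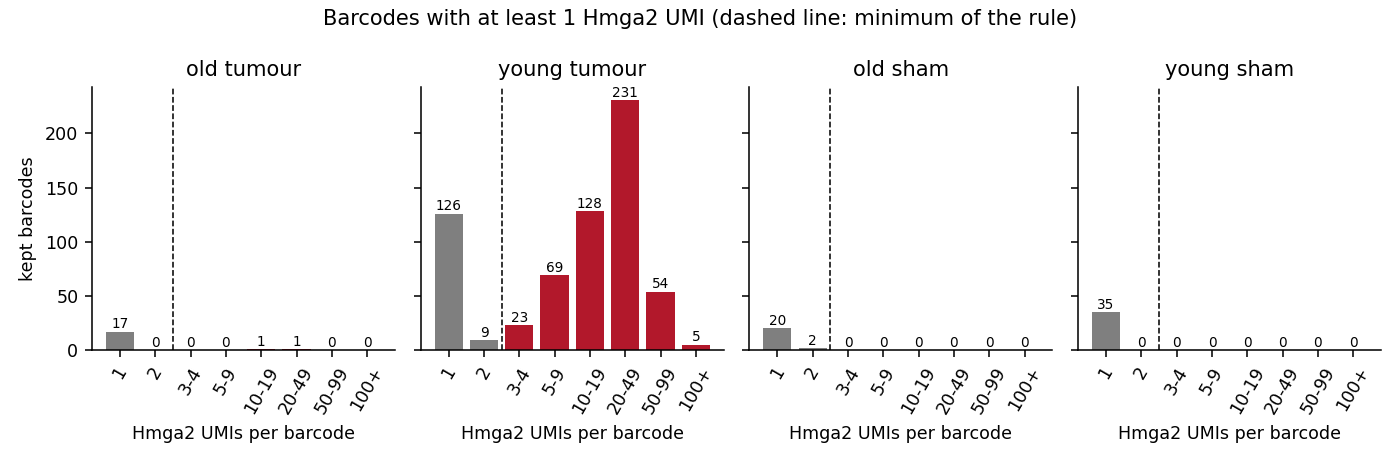
Number of kept barcodes (linear axis) by Hmga2 UMIs per barcode in the old tumour, young tumour, old sham and young sham libraries, with bars in red from the minimum of 3 UMIs up (dashed line) and grey below it. In the young tumour library, 231 barcodes had 20 to 49 UMIs, and a gap with 9 barcodes at 2 UMIs separates them from the 126 barcodes at 1 UMI.

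The cut at 3 UMIs fell in a thin stretch of the distribution in the young tumour library. Just inside it stood 14 cells with exactly 3 Hmga2 UMIs, and just outside it 9 barcodes with 2. The 14 cells had a median of 13123 UMIs and 5441 CPM of Lgals1, and the 9 barcodes had 13203 UMIs and 4758 CPM. Xist UMIs were found in 12 of the 14 cells and in 7 of the 9 barcodes, and Col3a1 UMIs in 12 and in 6. The 126 barcodes with 1 Hmga2 UMI were unlike both, with a median of 4688 UMIs and 378 CPM of Lgals1. They stood near the 10930 barcodes with none, at 3785 UMIs and 184 CPM of Lgals1.

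The Hmga2 cells of the young tumour library were deep. Their median was 26194 UMIs (3098 to 175294) and 5661 genes, against 3794 UMIs and 1681 genes in the other kept barcodes of the library. Mitochondrial UMIs took a median of 2.63% in the Hmga2 cells and 3.89% in the others, and ribosomal protein UMIs took 22.4% and 7.89%. After every cell was thinned to 3000 UMIs (3725 shallower other barcodes were left out), the medians were 1528 genes in Hmga2 cells and 1444 in the others. Scrublet, with the highest scores marked at a rate of 0.8% per 1000 barcodes, marked 82 Hmga2 cells as doublets (16.1%) and 990 of the others (8.95%). Of the Hmga2 cells, 5 shared a barcode sequence with a kept barcode of another library, and no barcode sequence was a Hmga2 cell in 2 libraries.

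The genes that mark these cells were checked first. Hmga2 chose the cells, and the other 4 markers belong to the same contrast, so the values are a description. Lgals1, which encodes the secreted lectin galectin-1, had 3 UMIs in the lowest Hmga2 cell, a median of 131 and 656 in the highest, and the level was 4855 CPM against 198 CPM in the other barcodes. After thinning, 100% of Hmga2 cells and 21.4% of the others still held a Lgals1 UMI. Vim, the intermediate filament vimentin, stood at 3500 CPM against 513 CPM and was detected in 99.8% of Hmga2 cells against 35.4% of the shallower others. Galectin-1 and vimentin were thus near universal in the Hmga2 cells. Cd44, the hyaluronan receptor, reached 134 CPM against 19.6 CPM and had a UMI in 26.5% of thinned Hmga2 cells against 4.22% of thinned others. Top2a, the topoisomerase of dividing cells, reached 531 CPM against 46.7 CPM and was found in 59.2% against 3.43% after thinning. Hmga2 itself ranged from 121 to 3614 CPM over the cells, with a median of 766 CPM. All 5 marker genes were thus present. At 3000 UMIs per cell the variance over the mean was 2.62 for Lgals1, 2.88 for Vim, 1.25 for Cd44 and 2.14 for Top2a.

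Across the transcriptome, 10936 genes reached 10 CPM in the Hmga2 cells or in the other kept barcodes of the young tumour library. Of these, 2028 were more than 2-fold higher in Hmga2 cells (18.5%) and 3176 more than 2-fold lower (29.0%), and the median log2 ratio was −0.10. These shares are the background for every count of list genes below. Because a gene of the same contrast chose the cells, nothing is tested with them. The other barcodes mix many cell types, so the Hmga2 cells were also set beside 16 classes of the same library. Each was formed from barcodes with at least 3 markers of a cell type and more of that type than of any other. Only classes of 50 or more barcodes were used for these levels. This left out neutrophils (45 barcodes), NK cells (46), dendritic cells (28), oligodendrocyte precursors (26) and erythroid cells (13), so no level below is set against them. The classes are crude: the neutrophil gene S100a9, for example, was highest in the pericyte class, and no neutrophil class was among the 16. Of the marker genes above, Vim was higher in the smooth muscle class (4168 CPM) than in Hmga2 cells, and Top2a in the neuroblast class (552 CPM). Cd44 came close in the monocyte class (114 CPM). Lgals1 was highest among the classes in T cells, at 1506 CPM, below the level of the Hmga2 cells.

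**Figure D2:**
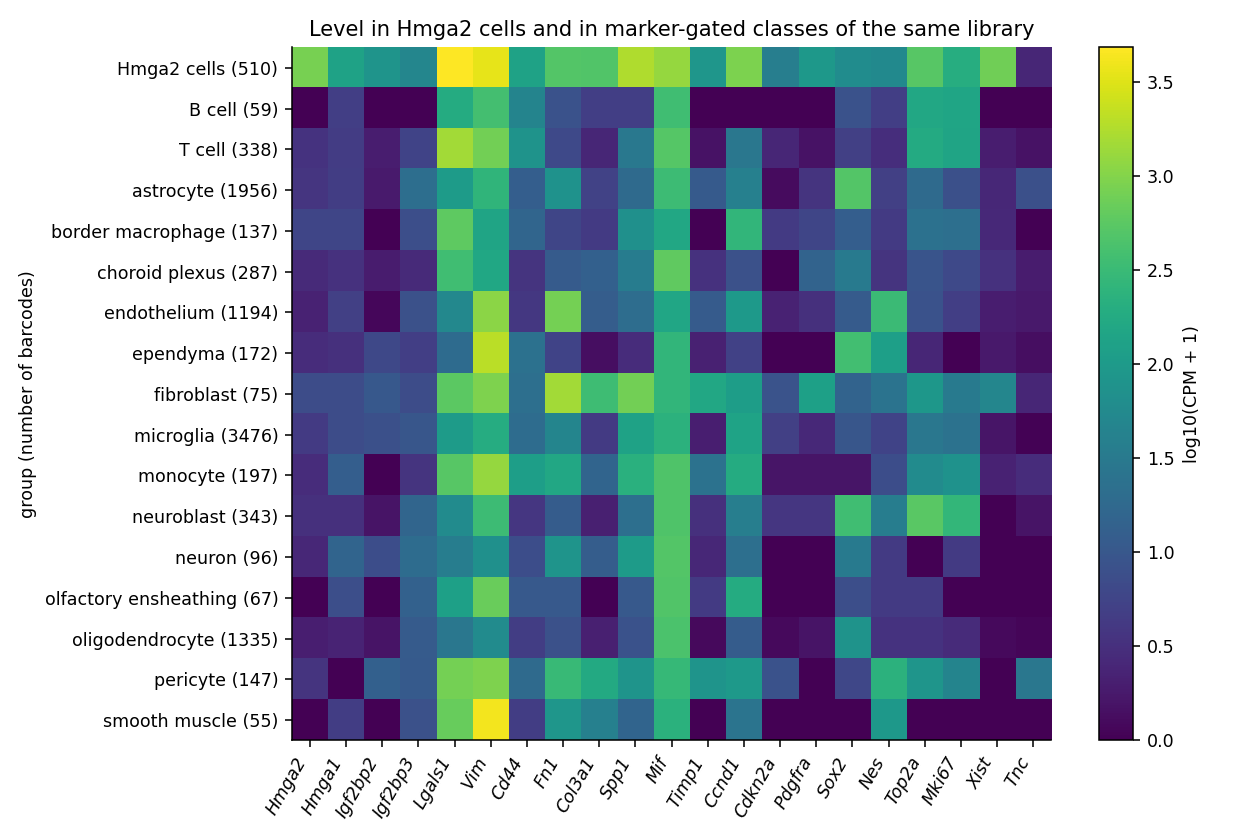
Level of 21 genes, as log10 of CPM + 1, in the Hmga2 cells of the young tumour library (top row, 510 cells) and in the 16 marker-gated classes below it. Hmga2, Igf2bp2 and Xist are brightest in the top row, whereas Sox2, Nes and Tnc are brighter in some of the classes.

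Of the genes with at least 50 CPM in the Hmga2 cells, Hmga2 had the highest ratio to the other barcodes (log2 8.45, 8.21 to 8.70) and to the highest class (log2 7.13, against 6.13 CPM in the fibroblast class). Hmga2 chose the cells, so its own place in this ranking is not a result. Next by ratio came Hoxc10 (ENSMUSG00000022484), a homeobox gene of the posterior body axis, with 74.3 CPM against 0.221 CPM (log2 8.40, 7.62 to 9.31). Xist (ENSMUSG00000086503), the RNA that coats the inactive X chromosome, had 774 CPM against 2.89 CPM (log2 8.07, 7.85 to 8.29). Each was found in few barcodes outside the Hmga2 cells. Fosl1, which encodes the AP-1 subunit FRA-1, had 86.0 CPM against 0.475 CPM. Prkg2, a cGMP-dependent kinase, had 218 CPM against 1.34 CPM. Tnnt2, cardiac troponin T, had 102 CPM against 1.10 CPM. These 3 genes encode proteins of unlike function, and each was found in most Hmga2 cells (64.5, 92.7 and 72.2%) and in few of the shallower others (0.253, 0.578 and 0.488%). Hoxa7 and Hoxc9, Cst6 (a cysteine protease inhibitor), Apol9a, Ahnak2, Gxylt2, Col3a1, Emp1 and Anxa1 completed the 15 highest, with log2 ratios of 7.06 to 5.25. Against the highest class, the ratio shrank to 0.28 for Gxylt2, 0.49 for Col3a1 and 0.63 for Ahnak2, each set against the fibroblast class. That class has 75 barcodes, and Col3a1 is one of the markers that formed it. It also had 49.0 CPM of Xist, against 2.35 CPM in the next highest class, choroid plexus. Whether it holds barcodes like the Hmga2 cells was not tested. It stayed at 4.71 for Fosl1, 3.16 for Prkg2 and 2.82 for Tnnt2. The 5 lowest were genes of other cells: Mcpt2, a mast cell protease, the antibody genes Ighg2c and Jchain, Tagln of smooth muscle and S100a9 of neutrophils, at 0.251 to 1.69 CPM in the Hmga2 cells and 58.3 to 265 CPM in the others.

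Hox genes specify position along the body axis in the embryo and are largely silent in the forebrain. The 39 Hox genes in the matrix were examined as a set after Hoxc10, Hoxa7 and Hoxc9 had been seen. They summed to 419.9 CPM in Hmga2 cells and 6.35 CPM in the others. In the Hmga2 cells 9 of the 39 reached 10 CPM, and in the others 0. The transcripts came from the Hoxc cluster (239.6 against 1.48 CPM) and the Hoxa cluster (167 against 1.39 CPM). The Hoxd cluster gave 12.3 CPM against 0.323 CPM, and the Hoxb cluster 0.814 CPM against 3.16 CPM. The 9 genes thus lay in 2 of the 4 clusters. The highest levels were 74.6 CPM for Hoxa7, 74.3 CPM for Hoxc10, 54.6 CPM for Hoxc9 and 48.4 CPM for Hoxc11. At least 3 Hox genes were detected in 481 Hmga2 cells (94.3%) and in 11 of the shallower others (0.0994%), and 2 Hmga2 cells had none. The median cell had 7.00 Hox genes. Outside the Hmga2 cells, the Hox sum was 2.22 CPM in the old tumour library, 2.10 CPM in the old sham library and 2.74 CPM in the young sham library.

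**Figure D3:**
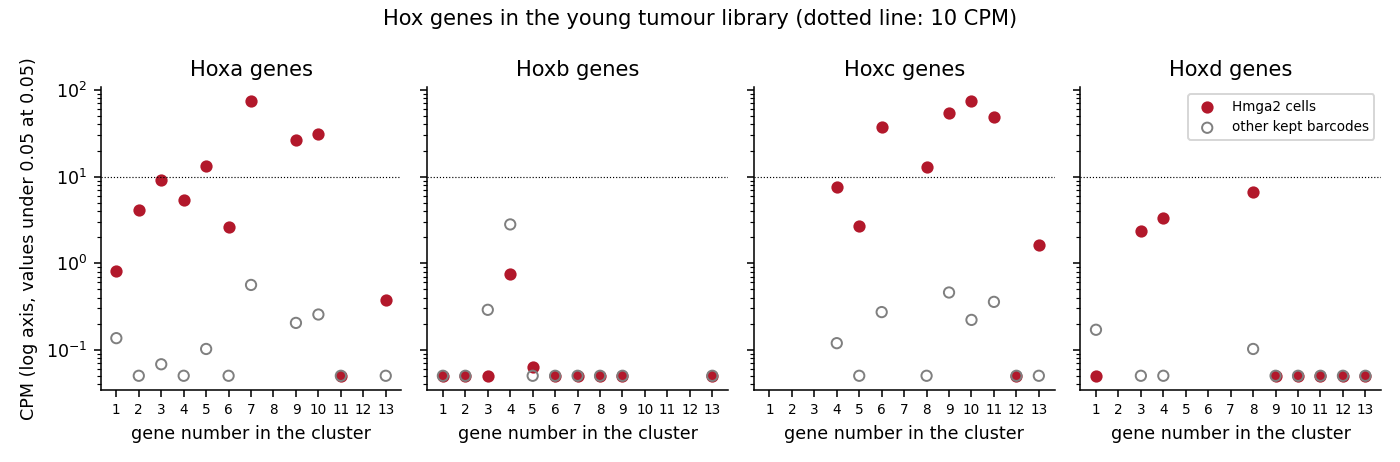
Level of each Hox gene in CPM (log axis, values under 0.05 drawn at 0.05) by its number in the Hoxa, Hoxb, Hoxc and Hoxd clusters, in Hmga2 cells (filled) and other kept barcodes (open) of the young tumour library. The genes above the dotted line at 10 CPM are 4 of Hoxa and 5 of Hoxc, all in Hmga2 cells.

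Oncofetal genes are active in the embryo and in tumours and quiet in adult tissue. Besides Hmga2, 8 genes of this list of 15 were measured, of which 5 were higher and 3 lower past 2-fold (median log2 2.46). Hmga1, the paralog of Hmga2, had 131 CPM against 4.41 CPM (log2 4.89, 4.70 to 5.08). Igf2bp2, an RNA-binding protein and known target of HMGA2, had 80.4 CPM against 2.80 CPM, and its paralog Igf2bp3 had 47.6 CPM against 9.34 CPM. The third paralog, Igf2bp1, was at 0.0626 CPM against 0.119 CPM, so the family was expressed unevenly. Mest, an imprinted gene, and Tpbg, the 5T4 antigen, had 68.8 and 22.6 CPM in Hmga2 cells, against 11.6 and 3.77 CPM in the others. The growth factor gene Igf2 and the imprinted zinc finger genes Peg3 and Plagl1 were lower, at 0.501, 1.5 and 0.376 CPM in Hmga2 cells against 38.5, 41.3 and 10.7 CPM. The let-7 antagonist genes were low: Lin28b had 2.51 CPM against 0.221 CPM, Trim71 had 3.63 CPM against 0.119 CPM, and Lin28a had 0 CPM against 0.0509 CPM. Lin28b had a UMI in 7.65% of Hmga2 cells and 0.0994% of the others, and in 1.18% against 0.0817% after thinning.

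The mesenchymal list, which holds genes of motile connective-tissue-like cells, had 18 of 27 measured genes higher and 6 lower past 2-fold (median log2 1.79). Its summed level was 17902 CPM in Hmga2 cells and 2846 CPM in the others. Twist1, a transcription factor of mesenchymal development, had 139 CPM against 6.30 CPM and was found in 95.1% of Hmga2 cells against 1.81% of the others (36.9% against 0.926% after thinning). Twist2 had 35.0 CPM against 0.628 CPM, and Prrx1, a homeobox factor of limb mesenchyme, had 189.8 CPM against 18.1 CPM. The factors of the Zeb pair did not share this: Zeb1 was at 42.0 CPM against 56.2 CPM and Zeb2 at 132 CPM against 318 CPM. Snai2 had 14 CPM against 2.17 CPM, whereas Snai1 had 0.188 CPM against 1.19 CPM. The calcium-binding proteins S100a6 (3328 against 209 CPM) and S100a4 (1381 against 118 CPM) and the phospholipid-binding Anxa1 (1565 against 41.0 CPM) made up much of the sum. Among the 6 lower genes, Acta2, smooth muscle actin, had 2.88 CPM against 170.0 CPM, and Ccn2, a YAP target, had 0.376 CPM against 18.0 CPM. Ccn1, another YAP target, was on the higher side at 48.4 CPM against 23.6 CPM (log2 1.03), a call that ended with an Hmga2 minimum of 5 UMIs. Tnc, a matrix protein often used as a glioma marker, was at 1.5 CPM against 1.41 CPM.

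**Figure D4:**
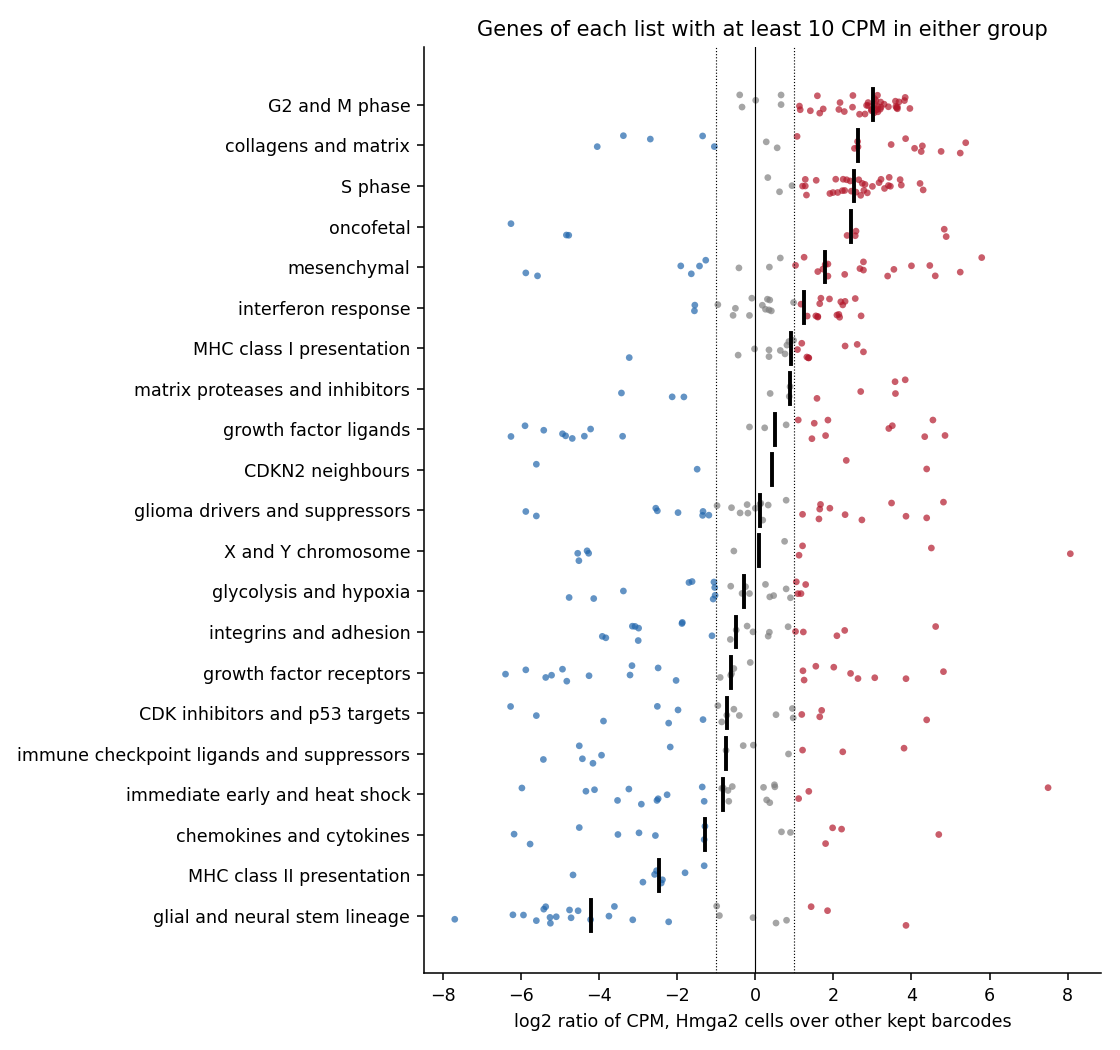
Log2 ratio of CPM in Hmga2 cells over other kept barcodes of the young tumour library, for the measured genes of 21 lists (points, jittered vertically) with the median of each list (bar), in red above and in blue below 2-fold. Medians run from 3.01 for G2 and M phase to −4.22 for glial and neural stem lineage genes.

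Of 19 measured collagen and matrix genes, 12 were higher and 5 lower past 2-fold (median log2 2.62). Col3a1, a fibrillar collagen, had 484 CPM against 11.5 CPM and was found in 97.5% of Hmga2 cells against 2.04% of the others (67.6% against 1.39% after thinning). Col1a2, which is normally made together with it, had 2.07 CPM against 34.2 CPM, and Col1a1 had 6.26 CPM against 12.9 CPM. The fibroblast class had all 3, with 345 CPM of Col3a1, 985 CPM of Col1a2 and 614 CPM of Col1a1, although Col3a1 and Col1a1 are among the markers that formed it. The Hmga2 cells thus had abundant type III and little type I collagen transcript. Col18a1, the source of endostatin, had 319.7 CPM against 8.42 CPM. The basement membrane subunit Lamb1 had 195 CPM against 11.5 CPM, the proteoglycan Bgn had 567 CPM against 29.7 CPM, and Vcan had 225 CPM against 11.5 CPM. Dcn and Lum, proteoglycans that define fibroblasts, were at 2.94 and 0.188 CPM against 30.7 and 4.04 CPM. Among 11 measured proteases and inhibitors, 5 were higher and 3 lower. The gelatinase gene Mmp2 (60.5 against 5.06 CPM), the stromelysin-3 gene Mmp11 (34.2 against 2.39 CPM) and the urokinase receptor gene Plaur (65.8 against 10.1 CPM) were among the higher. Timp1, a metalloprotease inhibitor, had 86.5 CPM against 7.17 CPM, whereas Timp3 had 16.8 CPM against 181 CPM. The fibroblast class had more Timp1 than the Hmga2 cells, at 162 CPM, and the pericyte class came close at 78.6 CPM.

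Genes of the glial and neural stem lineage were mostly low. Of 25, 3 were higher and 17 lower past 2-fold, with a median log2 of −4.22. Gfap, the astrocyte filament, had 1.07 CPM against 78.9 CPM, and Olig2 and Sox10, oligodendrocyte lineage factors, had 0.877 and 0.940 CPM against 37.5 and 39.0 CPM. Prom1, which encodes the stem cell surface protein CD133, had 1.13 CPM against 55.2 CPM. These 4 genes were near 1 CPM, whereas the glial factor Sox9 had 156 CPM against 108 CPM. Pdgfra, a receptor of glial precursors and fibroblasts, had 91.0 CPM against 6.28 CPM and was found in 78.2% of Hmga2 cells against 1.56% of the shallower others. It was higher in the fibroblast class (124 CPM), of which it is a marker. Sox4 (393 against 146 CPM) and the proteoglycan Cspg4 (54.4 against 15.1 CPM) were the others above 2-fold. Sox2 (60.1 against 114 CPM) and the intermediate filament nestin, Nes (55.2 against 57.6 CPM), lay within 2-fold. Sox2 had a UMI in 58.0% of Hmga2 cells, but in 14.1% after thinning against 19.6% of the other barcodes.

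Of 30 measured glioma drivers and suppressors, 11 were higher and 8 lower past 2-fold (median log2 0.13). Ccnd1, cyclin D1, had 902 CPM against 80.2 CPM, above the 264 CPM of its highest class. Its kinases Cdk4 and Cdk6 had 285 and 86.1 CPM against 89.7 and 22.9 CPM, although Cdk4 was higher in the neuroblast class (663 CPM). Myc had 39.3 CPM against 8.00 CPM. Trp53 had 319 CPM against 48.0 CPM and was detected in 97.3% of Hmga2 cells against 19.4% of the shallower others. Yet its target Cdkn1a, the inhibitor p21, had 24.1 CPM against 137 CPM and Mdm2 had 21.1 CPM against 53.2 CPM. Other genes of the list of CDK inhibitors and p53 targets went either way: 4 of 19 were higher and 7 lower, with Phlda3 at 230.0 CPM against 70.7 CPM. Among receptor tyrosine kinases, Met had 30.8 CPM against 1.09 CPM, whereas Egfr had 0.313 CPM against 18.5 CPM. Nf1, Tsc1 and Tsc2 were within 2-fold, for example Nf1 at 30.7 CPM against 47.0 CPM. Rb1 had 11 CPM against 43.6 CPM.

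The neighbours of the Cdkn2 locus on chromosome 4, which is often deleted in gliomas, were looked at gene by gene. Cdkn2a, which encodes p16 and ARF, had 36.2 CPM against 1.73 CPM. It was found in 63.5% of Hmga2 cells against 0.687% of the others, and in 13.1% against 0.463% after thinning. Cdkn2b, the adjacent gene for p15, had 0.251 CPM against 12.3 CPM and was found in 0.784% of Hmga2 cells against 4.71% of the others. Mtap, on the other side of Cdkn2a, had 101 CPM against 20.1 CPM, and Dmrta1 had 7.58 CPM against 0.391 CPM. Klhl9, further along, had 18.7 CPM against 52.5 CPM. Of the 4 measured genes of this list of 7, 2 were thus higher and 2 lower past 2-fold.

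Of 18 genes of MHC class I antigen presentation, 8 were higher and 1 lower past 2-fold, and 9 were within 2-fold (median log2 0.92). H2-K1, a classical class I heavy chain, had 2197 CPM against 965 CPM, and B2m, the light chain, was within 2-fold at 2204 CPM against 1411 CPM. Nlrc5, the class I transactivator, had 55.3 CPM against 8.10 CPM, and the immunoproteasome subunit Psmb8 had 964 CPM against 373 CPM. Of 30 interferon-response genes, 16 were higher and 2 lower past 2-fold (median log2 1.25, summed 8029 against 3217 CPM). Isg15, a ubiquitin-like modifier, had 836 CPM against 196 CPM, and Ifit1, a sensor of foreign RNA, had 333 CPM against 50.8 CPM. Rsad2 (viperin) and the GTPase Gbp2 had 152 and 384 CPM against 32.1 and 77.7 CPM. Interferon genes were not evenly spread over the cells: at 3000 UMIs per cell the list summed to 8.0 UMIs at the 5th percentile of Hmga2 cells, 23 at the median and 59 at the 95th. Irf7 and Ifi27l2a were lower, at 23.4 and 99.3 CPM against 68.8 and 293 CPM, and both calls ended with the mean of per-cell CPM. Among 13 measured checkpoint ligands and suppressors, 3 were higher and 6 lower. Cd276 (B7-H3) had 21.2 CPM against 4.48 CPM, and Cd274 (PD-L1), within 2-fold, had 29.8 CPM against 16.6 CPM.

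All 8 MHC class II genes were lower (median log2 −2.47), summing to 1467 CPM in Hmga2 cells and 7950.4 CPM in the others. These transcripts sat in a minority of the cells. The 115 Hmga2 cells with 3 or more of the 7 microglia markers held 92.6% of them (4743 CPM). The 329 with 1 or 2 microglia markers had 164 CPM, and the 66 with none had 74.8 CPM. The class II level moved with the microglia markers, and their part in it was not tested.

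Secreted signals differed gene by gene. Of 14 measured chemokines and cytokines, 4 were higher and 8 lower past 2-fold (median log2 −1.30), although the sum was 4678 CPM against 1753 CPM. As the mean of per-cell CPM, the list median was 0.24. Spp1, osteopontin, had 1773 CPM against 68.4 CPM and was found in 99.8% of Hmga2 cells, and Mif had 1286 CPM against 326 CPM. Ccl2, which attracts monocytes, had 212 CPM against 45.9 CPM, and Cx3cl1, fractalkine, had 44.1 CPM against 12.6 CPM. Ccl5 was within 2-fold at 1202 CPM against 645 CPM. Cxcl12 had 2.82 CPM against 205 CPM, Il1b had 11.8 CPM against 92.7 CPM, and Il6 had 0 UMIs in the Hmga2 cells against 2.0 CPM. The high sum thus came from Spp1, Mif and Ccl5. Ccl5 and the interferon-induced Cxcl10 were among the most uneven transcripts: per-cell Ccl5 had a median of 454 CPM with quartiles of 57.3 and 1503 CPM, and Cxcl10 had a median of 111 CPM with quartiles of 19.1 and 526 CPM.

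Growth factor genes split evenly, with 10 of 22 measured ligands higher and 9 lower past 2-fold (median log2 0.51). Inhba, the activin subunit, had 86.5 CPM against 3.70 CPM. The neurotrophin gene Bdnf had 27.6 CPM against 2.58 CPM, the EGF-family ligand Btc had 17.5 CPM against 0.866 CPM, and Vegfd had 18.6 CPM against 1.63 CPM. Vegfa was within 2-fold at 53.7 CPM against 59.4 CPM. Pdgfb, Gas6, Mdk and Ptn were lower, at 4.20, 3.13, 2.69 and 47.1 CPM in Hmga2 cells against 87.1, 134, 78.3 and 1216 CPM. Among 25 receptors, 9 were higher and 11 lower. Fgfr1 had 447 CPM against 53.5 CPM, whereas Fgfr2 and Fgfr3 had 1.63 and 2.57 CPM against 67.3 and 73.1 CPM. The collagen receptor Ddr2 had 63.2 CPM against 10.2 CPM. Tgfbr1 and Tgfbr2 had 22.2 and 22 CPM against 199 and 124 CPM.

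Other lists gave mixed counts, and their share of higher genes was near the 18.5% of all genes. Integrins and adhesion genes were higher for 5 of 21 and lower for 9 (median log2 −0.49), with the syndecan Sdc1 at 69.5 CPM against 2.82 CPM, the fibronectin receptor subunit Itga5 at 42.7 CPM against 8.73 CPM, and Itgb3 with no UMI against 6.04 CPM. Glycolysis and hypoxia genes were higher for 4 of 22 and lower for 9. The 4 higher genes were the glycolytic enzymes Gapdh, Pgam1, Eno1 and Pkm, with Pkm at 695 CPM against 336 CPM. The call of Eno1 ended with the mean of per-cell CPM. Other glycolytic enzymes were within 2-fold, as Aldoa (400.4 against 477 CPM), or lower, as Hk1 (18.6 against 38.9 CPM) and Pfkp (26.6 against 56.3 CPM). These last calls ended with totals that left out mitochondrial and ribosomal genes and with median centring. The hypoxia-induced Ndrg1 (7.58 against 207 CPM) and Bnip3 (11 against 35.8 CPM) and the glucose transporter Slc2a1 (15.2 against 267 CPM) were also lower. Immediate early and heat shock genes were higher for 3 of 24 and lower for 11, with Fos at 48.7 CPM against 461 CPM. Fos can be induced by tissue dissociation, and a part of handling in its level was not tested. Fosl1 was thus high while Fos was low.

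Proliferation genes were the most uniformly higher group. Of 36 measured S phase genes, 33 were higher and 0 lower past 2-fold (median log2 2.52), and of 46 G2 and M phase genes, 41 were higher and 0 lower (median log2 3.01). The neuroblast class matched or exceeded the Hmga2 cells for many of them, for example Cenpf, a kinetochore protein, at 267 CPM in Hmga2 cells and 477 CPM in neuroblasts. Ccne1, cyclin E1, was an exception, at 74.4 CPM in Hmga2 cells against 26.5 CPM in neuroblasts, its highest class.

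By the sum of Mki67 and Top2a UMIs, 396 Hmga2 cells had 3 or more (77.6%, 73.8 to 81.2%) and 114 had fewer. They are called high and low cells in what follows. Among the other barcodes, 238 had 3 or more (2.15%, 1.89 to 2.44%). These shares are not at equal depth, because the median was 26194 UMIs in the Hmga2 cells and 3794 UMIs in the others. Over the Hmga2 cells the sum reached 169 in the highest cell, with a median of 13, and 39 cells had 0. Just inside the cut were 27 cells with a sum of 3 and just outside 37 with a sum of 2. The high cells were deeper, with a median of 30242 UMIs against 18224 UMIs, so each cell was also thinned to 5000 UMIs, which left 395 high and 112 low cells. At that depth 340 of the 395 high cells and 29 of the 112 low cells held a Mki67 or Top2a UMI, and the medians were 2181 genes in high and 2154 genes in low cells.

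Mki67 and Top2a chose the sides and are left out of the list counts, but the genes that go with them are not independent of the rule, so the values that follow are a description. Between the sides, 8893 genes reached 10 CPM in either. Of these, 298 were more than 2-fold higher in the high cells (3.35%) and 142 lower (1.60%), and the median log2 ratio was −0.02. The G2 and M phase list had 42 of 46 genes higher (median log2 2.25) and the S phase list 19 of 36 (median 1.07). The highest ratios were those of mitotic and replication genes. Nusap1, a spindle protein, had 65.6 CPM in high cells against 2.66 CPM in low cells (log2 4.62, 3.50 to 6.07, and 4.44 after thinning). The kinesin Kif11 had 120.3 CPM against 6.66 CPM, and the mitotic kinase Aurkb had 74.3 CPM against 4.44 CPM. Ccna2, cyclin A2, had 95.3 CPM against 6.66 CPM. Aspm and Hmmr, spindle proteins, and Cenpf followed with log2 ratios of 3.65, 3.68 and 3.76. The replication-dependent histone genes Hist1h2ab and Hist1h1a (log2 4.53 and 3.43) and Pclaf (3.50), a PCNA partner, completed the 10. Not all proliferation genes followed the split: Ccne1 had 75.5 CPM in high cells and 67.5 CPM in low cells. Per cell at 5000 UMIs, the G2 and M list summed to a median of 29 UMIs in high cells (quartiles 17 and 45) and 7.5 in low cells (5.0 and 11). The S list summed to 14 in high cells (9.0 and 20) and 5.5 in low cells (3.0 and 10.0), so the quartile range of the high cells lay wholly above that of the low cells for G2 and M genes and overlapped it for S phase genes.

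**Figure D5:**
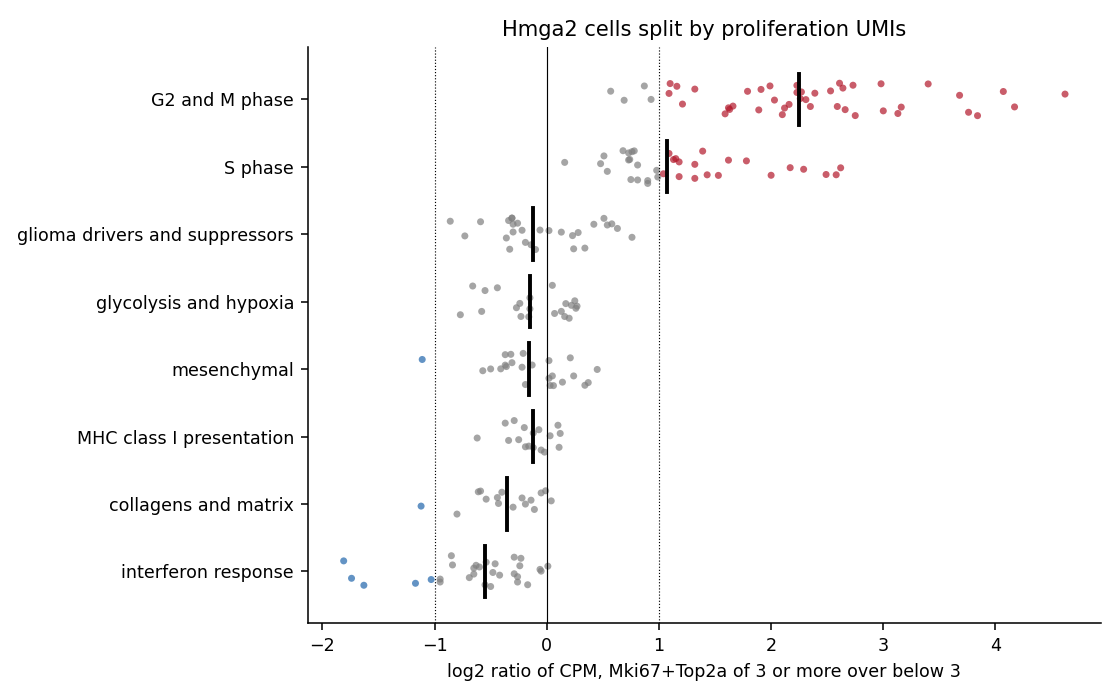
Log2 ratio of CPM in Hmga2 cells with 3 or more Mki67 and Top2a UMIs over those with fewer, for the measured genes of 8 lists (points, jittered vertically) with each list's median (bar). The G2 and M phase median is 2.25 and the S phase median 1.07, whereas the interferon response median is −0.55.

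Many mitotic genes carry a pair of promoter elements, the cell cycle genes homology region (CHR), TTTGAA, bound by the DREAM and MuvB complexes, and CCAAT boxes, bound by NF-Y. Promoters (250 bases before to 50 after the start, RefSeq, GRCm38.p6) were searched for TTTGAA or its complement TTCAAA and for CCAAT or its complement ATTGG. For the shares below the G2 and M and S phase lists were taken whole, whatever the ratios of their genes across the split. The shares thus describe the lists and would be the same without these cells. A CHR letter match stood in 30 of the 42 G2 and M promoters found in the table (71.4%), in 5 of 28 S phase promoters (17.9%) and in 18.1% of all 27025 promoters. CCAAT stood in 78.6% of the G2 and M promoters, 67.9% of the S promoters and 37.9% of all. Both stood in 61.9% of the G2 and M promoters and 7.12% of all. The promoters of 3 genes named above are printed as examples that hold both, with the matched letters in capitals. They lie at chr19:37376132-37376431 on the plus strand (Kif11), chr1:189688037-189688336 on the minus strand (Cenpf) and chr11:40733388-40733687 on the minus strand (Hmmr).
Kif11 promoter: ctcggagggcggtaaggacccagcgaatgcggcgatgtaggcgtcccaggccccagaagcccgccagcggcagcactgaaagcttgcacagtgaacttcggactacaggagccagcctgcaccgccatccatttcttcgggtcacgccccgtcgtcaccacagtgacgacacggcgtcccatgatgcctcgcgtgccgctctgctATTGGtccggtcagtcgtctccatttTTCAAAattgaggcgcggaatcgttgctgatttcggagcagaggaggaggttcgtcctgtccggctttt
Cenpf promoter: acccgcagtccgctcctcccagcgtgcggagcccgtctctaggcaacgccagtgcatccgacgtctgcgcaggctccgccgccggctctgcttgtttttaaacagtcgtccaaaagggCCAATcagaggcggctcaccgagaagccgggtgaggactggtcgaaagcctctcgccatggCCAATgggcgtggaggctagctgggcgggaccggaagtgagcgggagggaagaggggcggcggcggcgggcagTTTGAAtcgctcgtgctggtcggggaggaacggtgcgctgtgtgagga
Hmmr promoter: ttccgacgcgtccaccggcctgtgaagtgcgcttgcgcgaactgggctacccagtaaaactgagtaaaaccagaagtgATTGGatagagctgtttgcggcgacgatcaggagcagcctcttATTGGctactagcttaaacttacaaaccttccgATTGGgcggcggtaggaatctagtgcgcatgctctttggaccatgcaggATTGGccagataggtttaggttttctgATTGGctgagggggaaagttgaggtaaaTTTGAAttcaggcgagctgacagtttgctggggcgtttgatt
The Kif11 promoter holds 1 CHR and 1 CCAAT match, the Cenpf promoter 1 and 2, and the Hmmr promoter 1 and 5, and none of these matches overlap. The promoter of Nusap1, the gene with the highest ratio, holds neither in this window. A match describes letters and does not show binding.

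The mesenchymal and most oncofetal transcripts were at like levels on both sides of the split. The mesenchymal list summed to 17903 CPM in high cells and 17897 CPM in low cells, and Hmga2 itself was at 869 CPM and 771 CPM. Hmga1 had 136 CPM in high cells against 101 CPM in low cells, and Ccnd1 had 958 CPM against 564 CPM. Fosl1 had 93.1 CPM against 43.1 CPM (log2 1.11, 0.81 to 1.42). Mest was on the other side, at 57.8 CPM in high cells against 136 CPM in low cells, and Col3a1, within 2-fold, had 438 CPM against 762 CPM.

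Of 30 measured interferon-response genes, 5 were lower in the high cells past 2-fold, 0 were higher and 25 were within 2-fold (median log2 −0.55). Ifit3 had 91.2 CPM in high cells against 319 CPM in low cells (log2 −1.81, −1.94 to −1.67), Ifit2 had 72.1 CPM against 240.2 CPM, and Ifit3b had 19.8 CPM against 61.3 CPM. Ifit1 had 290.4 CPM against 595 CPM and Irf7 had 19.9 CPM against 44.8 CPM. Per cell at 5000 UMIs, the list summed to a median of 35 UMIs in high cells (quartiles 24 and 52) and 47.5 in low cells (31.8 and 71.2), so the sides overlapped widely. When the sides were formed after thinning, by at least 1 Mki67 or Top2a UMI of 5000, Ifit1, Ifit2, Ifit3b and Irf7 no longer passed 2-fold, whereas Ifit3 did. The other lowest genes included transcripts of other cell types. Ttr and Enpp2, secreted by choroid plexus, had 191 and 10.8 CPM in high cells against 1314 and 75 CPM in low cells, and 5 cells held 44.3% of the Ttr UMIs and 46.1% of the Enpp2 UMIs. The choroid plexus markers as a whole summed to 252 CPM in high cells and 1490.0 CPM in low cells, and the endothelial markers to 69.8 and 208 CPM. Their part in these differences was not tested.

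Markers of other cell types were present in many Hmga2 cells at full depth. The microglia list summed to 209 CPM in Hmga2 cells against 3873 CPM in the others, the oligodendrocyte list to 196 against 7512 CPM, the endothelial list to 89.3 against 2805 CPM and the choroid plexus list to 426 against 20051 CPM. NK cell markers were nearly absent, at 0.564 CPM against 42.5 CPM, with 2 of 6 at 0. At a fixed 3000 UMIs, 21 of 510 Hmga2 cells (4.12%) had 3 or more microglia markers, against 94.0% of the microglia class and 4.39% of the remaining classes. The classes here include those of fewer than 50 barcodes. All classes were formed from these same marker lists at full depth, so their shares here and below are shaped by that choice. The Hmga2 cells were not chosen by these lists, so the shares do not measure carry-over from other cells. For oligodendrocyte markers the shares were 1.57% of Hmga2 cells and 0.536% of the remaining classes, for monocyte markers 2.94% and 1.78%, for fibroblast markers 1.57% and 0.211%, and for neuroblast markers 0.98% and 0.371%. For astrocyte markers they were 2.16% and 4.87%, and no thinned Hmga2 cell had 3 markers of border macrophages, neutrophils, dendritic cells, NK cells, B cells, smooth muscle, neurons or erythroid cells. At full depth, 250 Hmga2 cells had 3 or more markers of at least 1 of 16 other types, and 260 did not. The fibroblast, monocyte, oligodendrocyte precursor, neuroblast and olfactory ensheathing lists, several of whose genes the Hmga2 cells express, were left out of this count after their values had been seen. The 250 had a median of 32221 UMIs and the 260 a median of 22140 UMIs. MHC class II summed to 2464 CPM in the 250 and 104 CPM in the 260, and the complement gene C1qb to 499 and 24.3 CPM. Microglia markers helped to divide the 250 from the 260, so these differences are not independent of the division. MHC class I (10797 and 11137 CPM), the interferon list (7910.4 and 8192 CPM), Ccl5 (1207 and 1196 CPM) and Cd44 (133 and 134 CPM) were close in both. Within the 260, Ifit2 had 81.0 CPM in high cells against 211 CPM in low cells, Ifit3 had 112 CPM against 258 CPM, and Ifit1 had 293 CPM against 527 CPM (log2 −0.85). Ttr had 209 CPM in high cells against 274 CPM in low cells there (log2 −0.39), and Mgp 91.7 CPM against 109 CPM. Ttr is one of the choroid plexus markers by which the 260 were chosen, so its smaller difference is not independent of that choice. Hist1h2bc, Cryab and Apod had log2 ratios of −1.62, −1.61 and −1.34 within the 260.

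Xist separated the Hmga2 cells from the rest of the library almost completely. It had a UMI in 494 Hmga2 cells (96.9%) and in 46 of the other 11065 barcodes (0.416%), and in 79.6% against 0.286% after thinning. Transcripts of the Y-linked genes Ddx3y, Eif2s3y, Kdm5d and Uty were found in 80 Hmga2 cells (15.7%, 8.40 CPM) and in 5867 others (53%, 179 CPM). The 78 Hmga2 cells with both Xist and a Y-linked UMI had a median of 33489 UMIs, and the 416 with Xist alone had 25736 UMIs. In 14 Hmga2 cells neither was found, 8 of them low cells. The sex of the mice is not given in the sources used here.

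The 2 Hmga2 cells of the old tumour library differed from each other. The first had 19248 UMIs, with 10 of Hmga2, 77 of Lgals1, 50 of Vim, 3 of Cd44, 18 of Xist and 0 of Mki67 and Top2a. The second had 67665 UMIs, with 39 of Hmga2, 355 of Lgals1, 286 of Vim, 9 of Cd44, 55 of Top2a, 30 of Mki67 and 0 of Xist. By the split of the young tumour library, the first was a low and the second a high cell. The first had 8 Hox genes (11 UMIs) and the second 11 (29 UMIs), and neither had a Y-linked UMI. Both were marked as doublets, with scores of 0.269 and 0.217. The cells of the young tumour library thus had counterparts in the old tumour library in Lgals1, Vim and Hox transcripts, and with 2 cells no more can be said.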

How the data were processed

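Cells were profiled with 10x Genomics 3′ v3 chemistry in 4 libraries. Unnormalized UMI counts were deposited for 32285 genes and 46097 barcodes, with 62726818 to 76652484 UMIs per library. The submitters' processing notes name mm10, Cell Ranger 3.0.2 and Seurat 2.3.4, whereas the deposited matrix headers name Cell Ranger 6.1.0. Groups follow the labels. The strain field, which differs in its last digit between samples, was not used.

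UMIs were summed over cells and divided by the group's total (CPM). Genes with at least 10 CPM in either group were compared as log2 ratios with exact conditional Poisson intervals, a count of 0 being replaced by 3. Thinning drew UMIs without replacement. The ratios were tested on simulated counts. Doublet scores came from Scrublet (scanpy 1.11.5, Python 3.11.15) per library. Between 24 and 49 barcode sequences were shared by each pair of libraries. Positions are those of GENCODE vM21 (GRCm38). Mx1 and Mx2 of the interferon list were not analysed here.

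The cells, lists and markers were chosen with earlier results of these data known. Genes named by rank had at least 100 UMIs over the Hmga2 cells and the other barcodes together. They excluded mitochondrial, ribosomal protein and hemoglobin genes and the provisional names Gm plus digits or with the suffix Rik. They were the 15 highest (50 CPM or more in Hmga2 cells) and the 5 lowest ratios to the other barcodes, the 10 highest over any class, and the 10 highest and 10 lowest across the split. Members of the lists and Hox genes were named at any count, so some, as Lin28a and Igf2bp1, rest on few UMIs. Genes with 20 CPM in all classes and under 1 CPM in Hmga2 cells were also sought, and there were 0. Alternatives changed the cell filter, the Hmga2 and split minimum, the CPM minimum, the scaling and the treatment of doublets. Removal of cells with markers of another type was added after seeing the data.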

Additional observations from a re-analysis of the deposited data

How the results depend on the processing

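No paired analysis was possible because each group has 1 library. Of 74 values for counts of cells, genes and lists under alternatives, 59 stayed close and 15 moved. Close means, for Hmga2 cells, that their share of kept barcodes stayed within the counting interval and, for genes and lists, a count within 1.5 times. With marked doublets removed, 0 Hmga2 cells were left in the old tumour library and 428 in the young. With at least 1000 UMIs and at most 10% mitochondrial UMIs, 504 were left in the young tumour library. An Hmga2 minimum of 2 gave 519 there and 2 in the old sham library. With a minimum of 50 CPM, 1094 genes were higher and 1157 lower in Hmga2 cells, 5 lists had a median lower past 2-fold (3 as reported), and across the split 113 were higher and 21 lower. With no minimum, 7435 genes and 5 lists were lower. Across the split, thinning gave 557 higher and 382 lower, a split at 1 UMI 525 and 291, and a split at 1 UMI after thinning 191 and 62. The median of the chemokine and cytokine list, −1.30, became 0.24 as the mean of per-cell CPM, and the cause was not tested. Totals without mitochondrial and ribosomal genes moved the median of all genes by 0.21, to 0.09, with 2632 genes higher and 3031 lower, and ended the call of Col1a1, as did median centring and the mean of per-cell CPM. Of 331 list and named genes past 2-fold, 0 to 7 calls ended under any setting. Of 77 across the split, 0 to 26 ended, 26 of them under the split at 1 UMI after thinning. A change of the CPM minimum leaves every ratio as it was, so it could end no call. Genes that fell under the minimum were not counted as ended. Without the Hmga2 cells that had markers of another type, 8 split calls ended (Ttr, Mgp, Ifit3b, Mcm5, Dscc1, Clspn, Ccnb2 and Ifit1), and 2076 genes were higher and 3259 lower than in the other barcodes. Ttr is itself one of those markers. Genes under a few CPM in the 114 low cells rest on few UMIs, and with 1 library per group no interval covers variation between mice.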

Other observations

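Levels by chromosome were examined after the gene values had been seen. For 2026 genes with at least 20 CPM in every class, the Hmga2 cells were set against the median of the 16 classes, and the median log2 ratio was 0.25. It was −0.74 for 66 genes of chromosome 14 (quartiles −1.0 and −0.25) and 0.77 for 76 genes of chromosome 19 (0.43 and 1.13). Chromosome 3 stood at 0.63, and chromosomes 9 and 18 at −0.02 and −0.05. No other chromosome had a median under 0. Rb1, which was low in Hmga2 cells, lies on chromosome 14. DNA copy number was not measured.

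Several genes that every class expressed were far lower in the Hmga2 cells. Tsnax, which encodes the RNA-processing protein translin-associated factor X, had 1.44 CPM in Hmga2 cells against 41.6 CPM in the median class and 22.7 CPM in the lowest. Tmem223 had 5.45 CPM against 113 CPM, although it lies on chromosome 19. Eif4g3, a translation initiation factor, had 4.57 CPM against 84.6 CPM. Ebpl, on chromosome 14, had 3.26 CPM against 58.2 CPM, and Ckb, the brain creatine kinase, had 78.0 CPM against 1572 CPM. These genes were picked from their values.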
